A study of Mus musculus with 56 samples.

Results

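The Wnt3a response of deltaC/- and dm/- cells was described, the lines of the series in which the mutant β-catenin allele stands over a deleted allele and in which, by the selection rule, no wild-type β-catenin C terminus remains. They account for 8 of the 56 samples of the series: 4 libraries from cells given Wnt3a at 100 ng/ml for 3 days and 4 from untreated cells kept alongside for the same 3 days, with 2 replicates per line and treatment. All lines came from mammary tumors of MMTV-PyMT mice on the FVB/N background, in which the mammary tumor virus promoter drives the polyoma middle T oncogene in mammary epithelium, so all 8 libraries share this transgene. The labels name the alleles deltaC and dm without spelling out the change in dm, and nothing in them says whether a line is 1 clone or how many tumors it came from. Following the study's methods, cells with a mutant allele over an intact one were cultured from tumors, with fibroblasts removed by repeated trypsinization, and the intact floxed allele (fl, flanked by recombinase sites and working as wild type) was deleted with a Cre adenovirus followed by sorting for GFP. These methods do not name the deltaC or dm lines, so this derivation is carried over from the lines that they do name. For comparison, the 8 libraries of deltaC/fl and dm/fl cells, the 4 of fl/fl cells and the 4 of D164A/- cells from the same Wnt3a experiment were used, where D164A is a substitution that disrupts the contact of β-catenin with Bcl9 and Bcl9l. D164A/fl cells, with 4 libraries, entered where the values of all lines were set side by side.

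β-catenin, encoded by Ctnnb1, links cadherins to the actin cytoskeleton and is the transcriptional effector of canonical Wnt signaling. Without a Wnt ligand, a destruction complex of Axin, Apc and kinases marks it for degradation, and a ligand such as Wnt3a that engages Frizzled and Lrp5 or Lrp6 halts this. Stabilized β-catenin then binds the DNA-bound TCF/LEF factors (Tcf7, Lef1, Tcf7l1 and Tcf7l2). Its N-terminal part recruits Bcl9 or Bcl9l and, through them, Pygo1 or Pygo2, and its C terminus contacts general coactivators such as the acetyltransferases CBP and p300, Mediator and the Paf1 complex. Axin2, a direct target gene, encodes a scaffold of the destruction complex and so a negative feedback.

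Expression was measured by RNA sequencing and is given in CPM, reads per 1 M reads of the effective library size set by the authors. The 8 libraries held 23.1 to 30.6 M reads assigned to genes (median 25.4 M), so 1 read stood for 0.0347 to 0.0452 CPM. Counts of up to 3 reads, which stood for 0.104 to 0.136 CPM, were taken as the floor of detection. Of the reads, 4.06% to 5.49% fell on the 10 most abundant genes. Epcam, Krt8, Krt18 and Cdh1, which mark epithelial cells, were between 132 and 4104 CPM in every library. Ptprc, which marks leukocytes, reached 6 reads at most, Cd3e, Cd79a and Itgam 3 reads at most, and Dcn, Lum and Thy1 of fibroblasts had no read, whereas Cd68 (9.71 to 49.3 CPM), Csf1r (1.24 to 57.2 CPM) and Pdgfra (4.43 to 10.1 CPM) were present throughout. The 6 leukocyte genes summed to 19.4 to 78.1 CPM untreated and 19.7 to 71.7 CPM with Wnt3a, and the 8 fibroblast genes to 6.56 to 11.1 CPM and 6.42 to 10.4 CPM. No library of the 8 stood apart, the lowest correlation with another library of its own line being 0.896, but the first untreated dm/fl library did (0.833 to 0.859 with its own line and 0.899 at best), and results against the floxed lines are therefore also given without it.

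Ctnnb1 was abundant in both lines. Untreated deltaC/- cells had 1613 and 1051 CPM and treated ones 1464 and 814 CPM. The dm/- values were 736 and 658 CPM untreated and 775 and 532 CPM with Wnt3a. Treated and untreated values overlapped in both lines, and the response was −0.18 on the log2 scale (SE 0.17). Counts per gene do not separate the alleles, so these values do not check the genotype. Here and below, a response is the difference in log2(CPM + 1) between Wnt3a-treated and untreated cells, fitted with limma to all 56 samples, and a gene was called when its Benjamini-Hochberg adjusted p did not exceed 0.05 and it rose or fell by 1 or more on this scale. Fold changes on this scale understate the change of genes near or below 1 CPM.

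Few genes passed the test. Over both lines, with equal weight for each, 1 of 13754 genes was called (0.00727%), and it rose: Stra6, a membrane receptor for retinol-binding protein. In deltaC/- cells alone 7 genes were called (0.0509%), 4 upward (0.0291%) and 3 downward (0.0218%). None was called in dm/- cells alone (0%), by limma or by edgeR, although 29 genes (0.211%) passed an unadjusted p of 0.05 in limma and 39 in edgeR. By comparison, limma called 52 genes in fl/fl (0.378%), 90 in D164A/- (0.654%), 31 in deltaC/fl (0.225%), 79 in dm/fl (0.574%) and 571 in D164A/fl cells (4.15%). In simulated libraries with known changes, limma recovered 100% of 4-fold and 39% of 2-fold changes of the response over both lines. For edgeR these shares were 100% and 44%. The median fitted log2 fold change at 4-fold was 1.95 in limma, so the shares mainly describe genes well above 1 CPM. All simulated libraries had the same mean for each unchanged gene and the same level of noise. They held no differences between lines, no shift between replicates and no trend with GC content, unlike the libraries described here. The shares therefore do not show how many changes of that size the test would find in the 8 libraries. Whether they hold there, or for the response of 1 line alone, was not tested.

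The responses turn mainly on Axin2 (mouse chromosome 11, 108917828 to 108950783, GRCm38), Stra6 (chromosome 9, 58063793 to 58154004) and Tcf7 (chromosome 11, 52246527 to 52283383). RefSeq promoter windows, from 250 bases before to 50 bases after an annotated start, are shown for Axin2 and Stra6 because these genes had the largest responses in deltaC/- cells. The windows were searched on both strands for 4 words of a TCF/LEF motif, which cannot overlap one another on 1 strand and are in capitals where found. They were CTTTGAA, then the word CTTTGAT, the third word CTTTGTA and, last, the word CTTTGTT. The Axin2 window (chr11:108920099-108920398, plus strand) held none. Of 4 Stra6 windows 1 held a match (chr9:58129099-58129398, plus strand), with ATCAAAG, the reverse complement of CTTTGAT, starting 145 bases before the start.
Axin2 promoter: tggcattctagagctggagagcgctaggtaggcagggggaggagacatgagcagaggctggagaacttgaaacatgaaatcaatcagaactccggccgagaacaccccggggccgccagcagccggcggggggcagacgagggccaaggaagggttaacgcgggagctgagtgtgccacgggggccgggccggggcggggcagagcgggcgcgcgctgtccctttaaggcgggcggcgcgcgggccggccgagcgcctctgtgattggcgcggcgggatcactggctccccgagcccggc
Stra6 promoter: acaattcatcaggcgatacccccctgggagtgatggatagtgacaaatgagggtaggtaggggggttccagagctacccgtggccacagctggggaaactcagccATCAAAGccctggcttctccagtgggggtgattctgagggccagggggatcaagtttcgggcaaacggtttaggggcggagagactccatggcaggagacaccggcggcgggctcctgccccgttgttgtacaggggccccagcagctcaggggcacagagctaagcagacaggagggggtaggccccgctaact
Such a motif occurs in 16.9% of all 32851 windows of this length, so the match is a description of these letters only. The windows of Tcf7 (2), Mmp24 and Cyp4f39 held none of the 4 words.

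Axin2 rose in deltaC/- cells and was close to absent in dm/- cells. With deltaC/- it went from 0.290 and 0.555 CPM untreated (7 and 16 reads) to 4.59 and 17.4 CPM with Wnt3a (121 and 385 reads). Both treated libraries were above both untreated ones, by 15.8-fold in the first pair of same-numbered libraries (95% interval 7.45 to 40.2, counting error only) and 31.4-fold in the second (19.1 to 55.4). The fitted log2 fold change was 2.84 (SE 0.49, limma adjusted p = 0.0107). In edgeR the gene was not called (4.72, adjusted p = 0.165), and with the replicate block it was (4.63, adjusted p = 0.00470). Axin2 in dm/- cells had no read in 3 of 4 libraries and 2 reads, 0.0791 CPM, in the second treated library. All 4 dm/- values were under 3 reads, and no fold change is given. In RNA from whole cultures, a change per cell and a change in the share of cells with the transcript cannot be told apart. Over both lines the log2 fold change was 1.45 (SE 0.35, limma adjusted p = 0.823), and with the replicate number as a block the adjusted p was 0.0431 in limma, while edgeR did not call it without or with the block (adjusted p = 1 and 0.751).

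Stra6 rose over both lines. In deltaC/- cells it had 0.0828 and 0.0347 CPM untreated (2 and 1 reads) against 4.59 and 6.55 CPM with Wnt3a (121 and 145 reads). The pairwise ratios were 55.4 (15.0 to 463) and 189 (33.4 to 7514). The 4 dm/- libraries had 0.0376 and 0.277 CPM untreated (1 and 7 reads) and 0.854 and 1.07 CPM treated (23 and 27 reads), with ratios of 22.7 (3.69 to 936) and 3.86 (1.64 to 10.5). The 4 treated libraries were all above the 4 untreated ones, and the treated level in dm/- cells was below that in deltaC/- cells. Over both lines the log2 fold change was 1.69 (SE 0.32, limma adjusted p = 0.0437), and on the recovered reads edgeR gave 4.57 with an adjusted p of 0.00302. The call depended on each library: without any single one of the 8, the limma adjusted p was between 0.0526 and 0.499 while the log2 fold change stayed between 1.58 and 1.80. Alone, the deltaC/- response was called (2.62, SE 0.45, adjusted p = 0.0107). Alone, the dm/- response was not called (0.77, SE 0.45, adjusted p = 1).

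Tcf7, a TCF/LEF factor, was higher with Wnt3a in both lines and in all 4 pairs. The deltaC/- values were 24.1 and 24.6 CPM untreated and 33.4 and 45.0 CPM treated, and the dm/- values 6.28 and 6.56 CPM untreated and 12.8 and 20.4 CPM treated. Treated and untreated values did not overlap within either line, and the ratios were 1.38 and 1.83 in deltaC/- pairs and 2.04 and 3.10 in dm/- pairs. The log2 fold change over both lines was 0.93 (SE 0.18, limma adjusted p = 0.0437), under the fold set for a call, and edgeR gave 1.05 (adjusted p = 0.0147), just past it. In dm/- cells alone it was 1.21 (SE 0.25, adjusted p = 0.240), and so, unlike for Axin2 and Stra6, larger than in deltaC/- cells (0.65, SE 0.25), a difference that was not past the threshold (0.56, SE 0.35, adjusted p = 1).

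**Figure D1:**
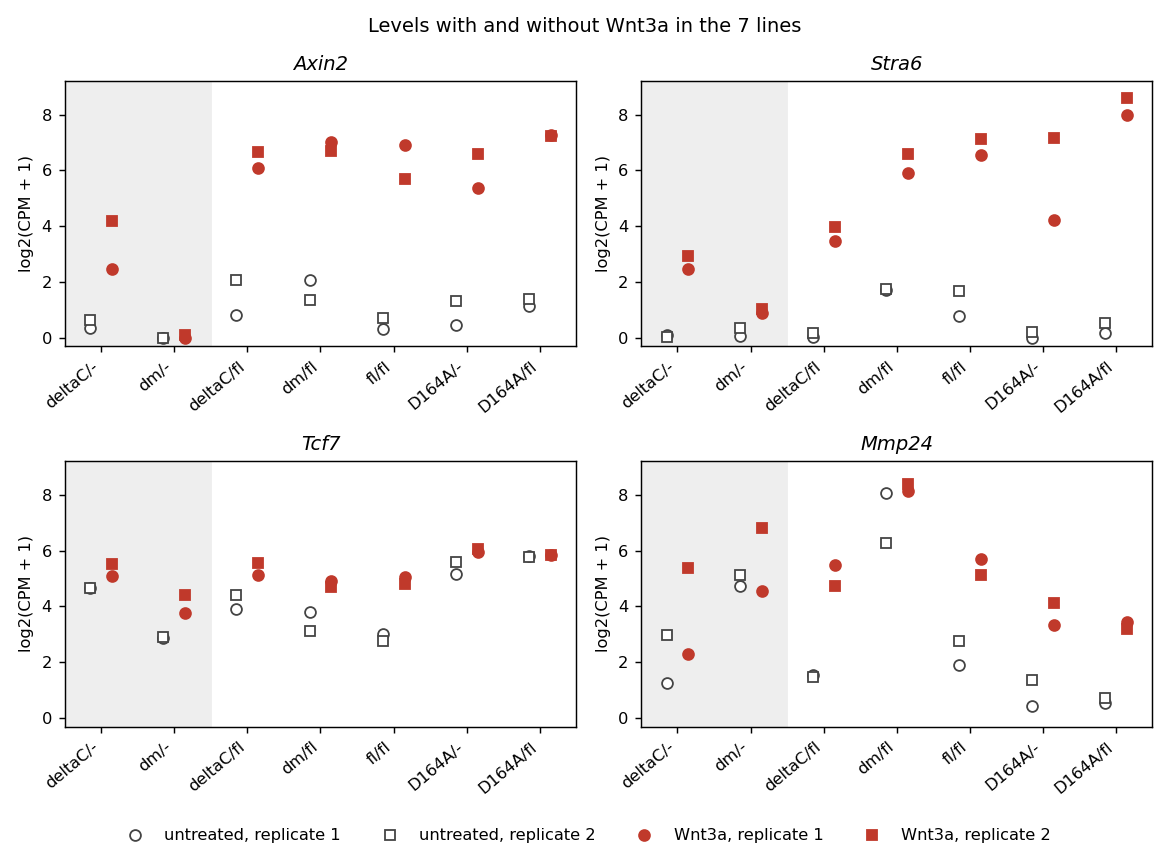
Levels of Axin2, Stra6, Tcf7 and Mmp24, a metalloproteinase gene described further on, in log2(CPM + 1) for each of the 28 libraries of the Wnt3a experiment, with open symbols for untreated and filled red symbols for Wnt3a-treated libraries and shape for the replicate number. The shaded deltaC/- and dm/- cells reach at most 17.4 CPM of Axin2 with Wnt3a, and every other line at least 39.9 CPM.

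Also called in deltaC/- cells were Pilrb2, which rose, and 3 zinc finger genes, which fell. Pilrb2 encodes a paired immunoglobulin-like receptor and went from 0.124 and 0.867 CPM to 2.05 and 4.38 CPM (log2 fold change 1.48, limma adjusted p = 8.29e-04, edgeR adjusted p = 0.919). Pilrb1 beside it on chromosome 5 is a near copy and moved from 0.0828 and 0.798 CPM to 0.948 and 3.71 CPM, so reads may be split between them and both values are uncertain. Zfp345 fell from 10.8 and 3.95 CPM to 2.24 and 0.813 CPM (−1.66, adjusted p = 0.0281), Zfp985 from 11.6 and 3.64 CPM to 2.28 and 0.994 CPM (−1.58, adjusted p = 0.0169) and Gm14124 from 5.51 and 1.07 CPM to 0.645 and 0.136 CPM (−1.43, adjusted p = 0.0189). These 3 belong to multigene families, and edgeR gave an adjusted p of 0.919 for each. Their GC content was low (37.3% to 43.5%), and with the trend of the response with GC content removed their log2 fold changes were −0.38, −0.98 and −0.07.

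That trend ran through the whole deltaC/- response and was not particular to it. Across the 13089 tested genes with a known GC content, the response rose with it in deltaC/- cells (Spearman rho = 0.77 across genes, which are not independent replicates) as it did in fl/fl cells (0.74), and had a lower rho in dm/- cells (0.37). The median response of the tenth of genes with the lowest GC content was −0.69 in deltaC/- and −0.08 in dm/- cells, and that of the tenth with the highest was 0.36 and 0.08. With the trend removed, Stra6 had a log2 fold change of 1.48 over both lines (adjusted p = 1), Axin2 in deltaC/- cells 2.45 (adjusted p = 0.153) and Tcf7 over both lines 0.78 (adjusted p = 0.119), and of the 7 genes called in deltaC/- cells 1 was still called, Pilrb2. The part of GC content in the other 6 calls was not tested further.

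**Figure D2:**
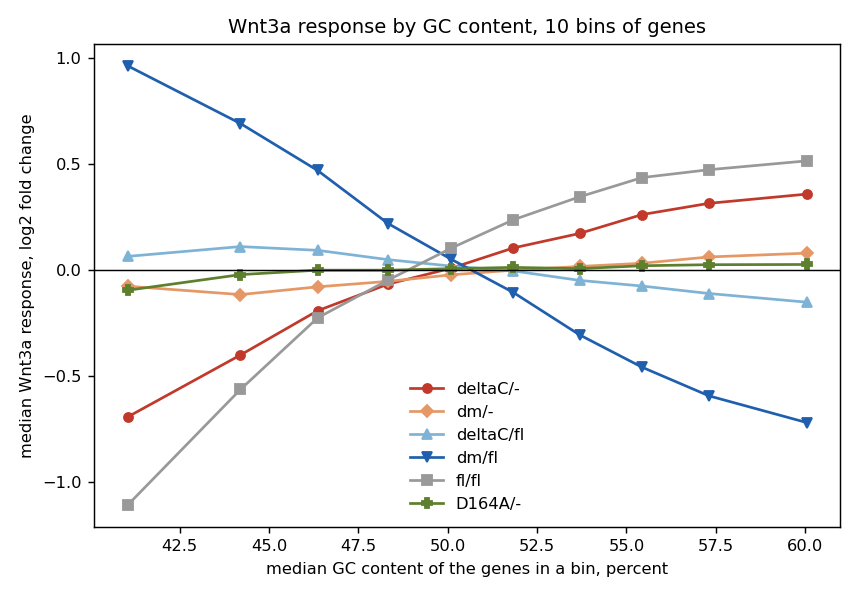
Median Wnt3a response, as log2 fold change of CPM + 1, of 10 bins of genes ordered by GC content (x axis, percent), for 6 lines. In deltaC/- cells it climbs from −0.69 to 0.36 and in dm/- cells it stays between −0.12 and 0.08, while fl/fl cells climb more steeply from −1.11 to 0.52 and dm/fl cells run the opposite way from 0.96 to −0.72.

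Among secreted and membrane inhibitors and feedback genes of the pathway, 16 of 26 listed genes passed the filter on low values (at least 1 CPM in 2 of the 56 samples), and 4 of these never exceeded 3 reads in the 8 libraries. Axin2 was the only one called by limma, in deltaC/- cells (0.0509% of all genes). The median response of the 16 was 0.13 over both lines, 0.22 in deltaC/- and 0.00 in dm/- cells, against 0.00, 0.02 and −0.00 for all genes tested. Notum, a secreted enzyme that inactivates Wnt ligands, had 8.57 and 59.5 CPM untreated and 34.7 and 131 CPM treated in deltaC/- cells. It was higher in both pairs there, but the replicates differed more than the treatments (log2 fold change 1.51, SE 0.78, adjusted p = 1). Notum in dm/- cells stayed under 0.8 CPM. Rnf43 and Znrf3, ubiquitin ligases that remove Frizzled from the membrane, had responses of 0.27 and 0.16 over both lines. Apcdd1, a membrane inhibitor, was expressed in dm/- cells (25.5 and 48.5 CPM untreated, 16.3 and 42.3 CPM treated) and had at most 1 read in deltaC/- cells. It was between 11.8 and 63.2 CPM in deltaC/fl cells. Lgr5, Nkd1 and Sp5, often used as Wnt target genes, had no read in any of the 8 libraries, which allows up to 3 reads in each.

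Of the other TCF/LEF factors, Tcf7l2 was the only one higher in all 4 pairs. Lef1 had 2.48 and 1.77 CPM untreated and 1.67 and 0.723 CPM treated in deltaC/- cells, both treated values being the lower ones (−0.53, SE 0.36, adjusted p = 1). The dm/- level stayed at or under 0.435 CPM. Tcf7l1 was higher in dm/- than in deltaC/- cells and scattered with treatment, at 6.42 and 9.21 CPM untreated and 4.05 and 17.4 CPM treated against 0.745 and 1.14 CPM and 1.02 and 1.81 CPM. Tcf7l2 went from 21.9 and 23.1 CPM to 24.1 and 34.0 CPM in deltaC/- and from 13.3 and 18.6 CPM to 18.8 and 26.6 CPM in dm/- cells, by 0.41 over both lines (SE 0.18, unadjusted p = 0.0269, adjusted p = 1). limma called none of the 4 TCF/LEF genes over both lines or in either line, whereas edgeR called Tcf7 over both, and their median response was 0.32 over both lines and 0.35 in fl/fl cells, where limma called Tcf7.

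Of upstream and partner genes none was called over both lines (0.00727% of all genes) or in deltaC/- cells (0.0509%), and at these shares a count of 0 says nothing about lists of this size. They were 18 genes of β-catenin, the destruction complex and Dishevelled, 23 nuclear partners and corepressors, 12 ligand and secretion genes and 14 receptor genes, with median responses over both lines of 0.04, 0.09, 0.13 and 0.02 against 0.00 for all genes. Apc, the destruction complex scaffold, went from 152 and 104 CPM to 56.9 and 32.7 CPM in deltaC/- cells but from 91.2 and 81.1 CPM to 176 and 36.9 CPM in dm/- cells. Bcl9 (26.1 to 68.3 CPM), Bcl9l (23.5 to 186 CPM) and Pygo2 (66.7 to 156 CPM) were expressed in all 8 libraries, whereas Pygo1 had no read. The cells expressed Wnt ligands of their own, with Wnt7b between 239 and 1184 CPM and Wnt7a between 141 and 317 CPM, and the receptors Lrp5 (42.9 to 301 CPM) and Lrp6 (92.5 to 262 CPM).

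Of 48 commonly used target genes outside the feedback loop, 38 were tested, with a median response of 0.04 over both lines. None was called, which at 0.00727% and 0.0509% of all genes says nothing about this list. Myc, a growth regulator, had 240 and 121 CPM untreated and 272 and 133 CPM treated in deltaC/- cells and 354 and 261 against 240 and 323 CPM in dm/- cells, a response of 0.01 (SE 0.34). Ccnd1, which encodes cyclin D1, went from 1155 and 2675 CPM to 1508 and 4143 CPM in deltaC/- cells. In dm/- cells it went from 791 and 1147 CPM to 1013 and 1512 CPM. It was higher in all 4 pairs, by 1.31-fold and 1.55-fold in deltaC/- and 1.28-fold and 1.32-fold in dm/- cells, and did not pass the test (0.44, SE 0.27, adjusted p = 1, and 0.668 with the replicate block). Cdh1, the epithelial cadherin, had a response of 0.16 (SE 0.24).

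Lists for epithelial, mesenchymal and other cell states are described by their medians, since at the shares called among all genes (0.00727% over both lines, 0.0509% in deltaC/- and 0% in dm/- cells) their counts of 0 calls say nothing about the members. Vim, a mesenchymal filament, was 41.5 and 130 CPM untreated and 40.3 and 231 CPM treated in deltaC/- cells and 1.47 and 4.39 against 2.15 and 20.6 CPM in dm/- cells (0.79, SE 0.55, adjusted p = 1). The second treated library carried the rise in each line. Of 26 epithelial genes the median was 0.18 in deltaC/- and −0.07 in dm/- cells, of 23 mesenchymal and matrix genes 0.01 and 0.05, and of 25 TGFβ and BMP response genes 0.19 and 0.08. Medians over both lines were −0.02 for 17 cadherin and catenin genes, 0.01 for 11 EMT transcription factors, −0.00 for 21 mammary lineage genes, 0.10 for 22 YAP/TEAD targets and 0.10 for 28 cell cycle genes. They were −0.05 for 20 interferon-stimulated genes, 0.11 for 22 sterol and fatty acid synthesis genes, 0.09 for 18 endoplasmic reticulum stress genes, 0.12 for 21 glycolysis and hypoxia genes, 0.11 for Ahr and its targets (8), 0.13 for 14 ERK feedback genes and 0.12 for 12 Notch genes. Mki67, a proliferation marker chosen after its values were seen, was lower with Wnt3a in both deltaC/- pairs. It had 110 and 311 CPM untreated and 16.8 and 80.2 CPM treated there, and it was not called. Of the 28 cell cycle genes, 15 were higher and 13 lower in deltaC/- cells (median 0.08), so Mki67 does not stand for the list. In dm/- cells Mki67 varied by library, at 69.5 and 122 CPM untreated and 291 and 63.8 CPM treated.

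**Figure D3:**
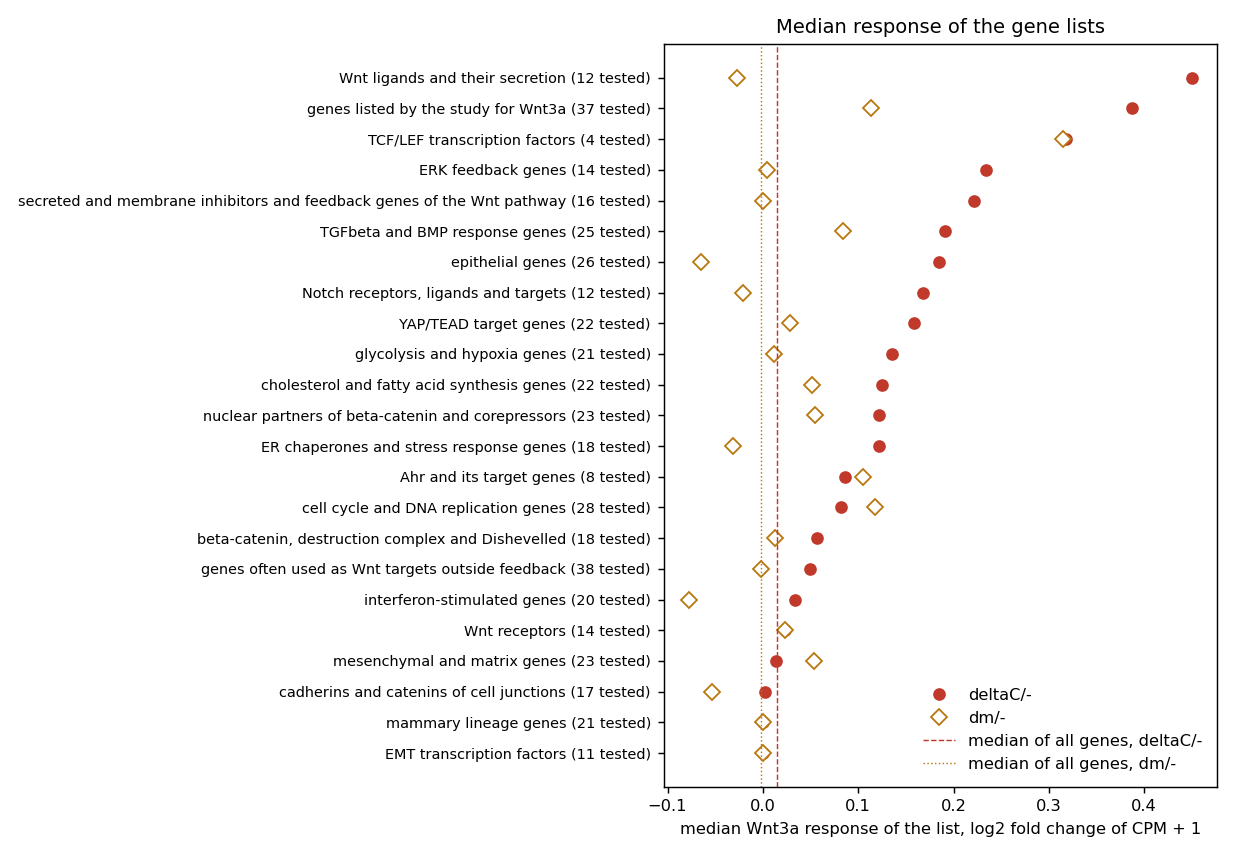
Median Wnt3a response (log2 fold change of CPM + 1) of each gene list in deltaC/- (filled circles) and dm/- cells (open diamonds), with the medians of all tested genes as vertical lines. The 4 TCF/LEF genes have nearly the same median in both lines (0.32 and 0.31), whereas the 16 inhibitors and feedback genes lie at 0.22 in deltaC/- and at 0.00 in dm/- cells.

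Genes that responded in other lines were followed in deltaC/- and dm/- cells. By a rule chosen after these values had been seen, 10 genes were taken that limma called upward in at least 3 of the 5 other lines: Axin2 and Stra6 in all 5, Mmp24, Cyp4f39 and Ccdc80 in 4, and Tcf7, Hs3st3b1, Rhou, Il33 and Endou in 3. The shares of genes called upward were 0.153% in fl/fl, 0.407% in D164A/-, 0.131% in deltaC/fl, 0.342% in dm/fl and 2.85% in D164A/fl cells. All 10 were higher with Wnt3a in both deltaC/- pairs, and 5 and 6 of the 10 in the first and second dm/- pair. Axin2, Ccdc80 and Il33 had a difference of 0 in the first dm/- pair and so count as not higher. In the second dm/- pair Axin2 counts as higher by 2 reads against 0. Of all genes, 48.9% and 51.1% were higher in the deltaC/- pairs and 40.8% and 49.3% in the dm/- pairs. The median response of the 10 was 0.72 in deltaC/- and 0.09 in dm/- cells, against 2.22 in fl/fl cells, which took part in the choice. Stra6, Tcf7 and Cyp4f39 were higher in 4 of 4 pairs, as were 2.79% of all genes tested.

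Their levels show how the lines differed. Mmp24, a membrane-type metalloproteinase, had 1.37 and 6.90 CPM untreated and 3.94 and 40.4 CPM treated in deltaC/- cells, and 25.6 and 34.3 against 22.6 and 112 CPM in dm/- cells. Cyp4f39, a fatty acid hydroxylase of the cytochrome P450 family, had 0.952 and 0.798 CPM untreated and 3.79 and 2.80 CPM treated in deltaC/- cells and at most 0.237 CPM in dm/- cells. Ccdc80, a secreted matrix protein gene, had 0.166 and 0.104 CPM untreated and 0.303 and 0.904 CPM treated in deltaC/- cells and at most 1 read in dm/- cells. None of these 3 was called in either line.

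**Figure D4:**
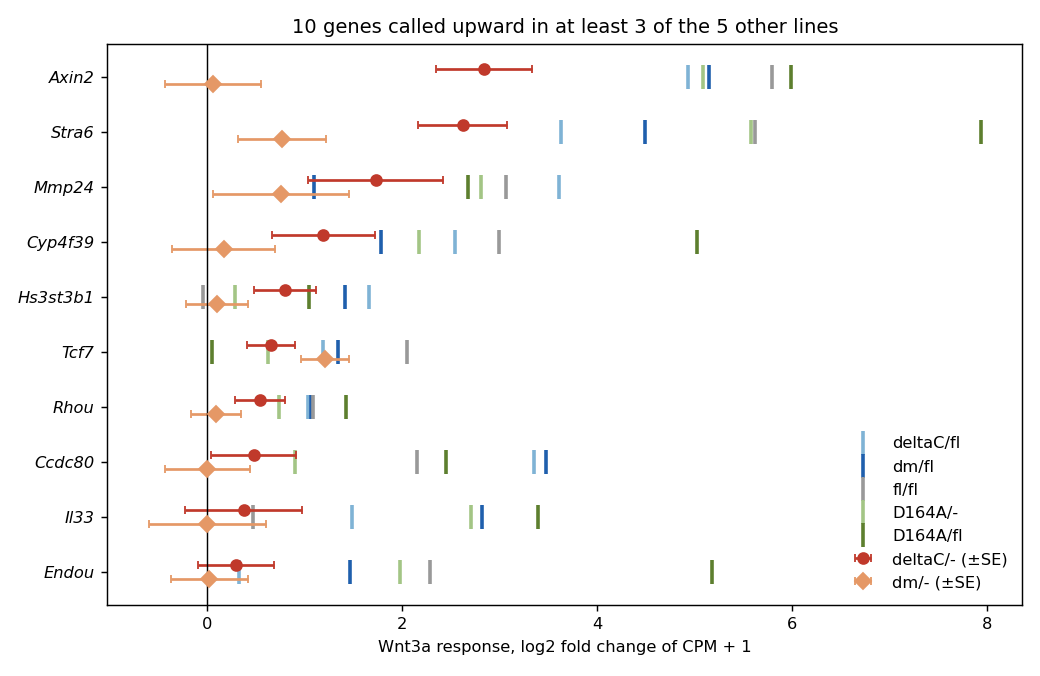
Wnt3a response (log2 fold change of CPM + 1) of the 10 genes called upward in at least 3 of the 5 other lines, with deltaC/- as circles and dm/- as diamonds (bars, SE) and the other lines as vertical marks. The dm/- values of Axin2 (0.05) and Ccdc80 sit near 0, and for Axin2 and Stra6 the deltaC/- values of 2.84 and 2.62 lie below all 5 other lines.

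The study lists Wnt3a-regulated genes whose expression was affected by the loss of Bcl9/Bcl9l binding to β-catenin. They were shared by its Bcl9/Bcl9l mutant and D164A lines, and 37 of them were followed. That list was drawn from lines of the same study, fl/fl and D164A cells among them, and not, as far as its methods tell, from deltaC/- or dm/- libraries. All 37 were tested, with 5 at or under 3 reads in all 8 libraries. Over both lines 33 of 37 had a positive response, with a median of 0.27, and none was called over both lines or in either. The median was 0.39 in deltaC/-, 0.11 in dm/- and 0.96 in fl/fl cells. In the first and second pair, 31 and 32 of the 37 were higher in deltaC/- and 13 and 27 in dm/- cells. Genes with a difference of 0 count as not higher, and in the first dm/- pair these were Il33, Cntn2, Prr5l and Tmem119 among others. The counts for dm/- cells therefore do not give the number of genes that fell. In 4 of 4 pairs 10 were higher (27% of the list against 2.79% of all genes tested) and none was lower (4.7% of all genes). The listed genes had a median GC content of 54.6% against 51.0% for all genes, and with the GC trend removed their median over both lines was 0.25.

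Ptgs1, which encodes cyclooxygenase 1, was higher in all 4 pairs, going from 41.4 and 115 CPM to 108 and 249 CPM in deltaC/- and from 372 and 412 CPM to 449 and 618 CPM in dm/- cells (0.83, SE 0.29, adjusted p = 1). Ly6c1, a surface antigen gene, went from 58.0 and 78.6 CPM to 176 and 116 CPM and from 116 and 142 CPM to 149 and 210 CPM (0.76, SE 0.32, adjusted p = 1). Glul, encoding glutamine synthetase and a Wnt target of the liver, had 25.6 and 29.2 CPM untreated and 30.9 and 42.1 CPM treated in deltaC/- cells, and 16.9 and 25.5 against 16.9 and 34.5 CPM in dm/- cells. These 3 were chosen as examples after their values were seen.

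**Figure D5:**
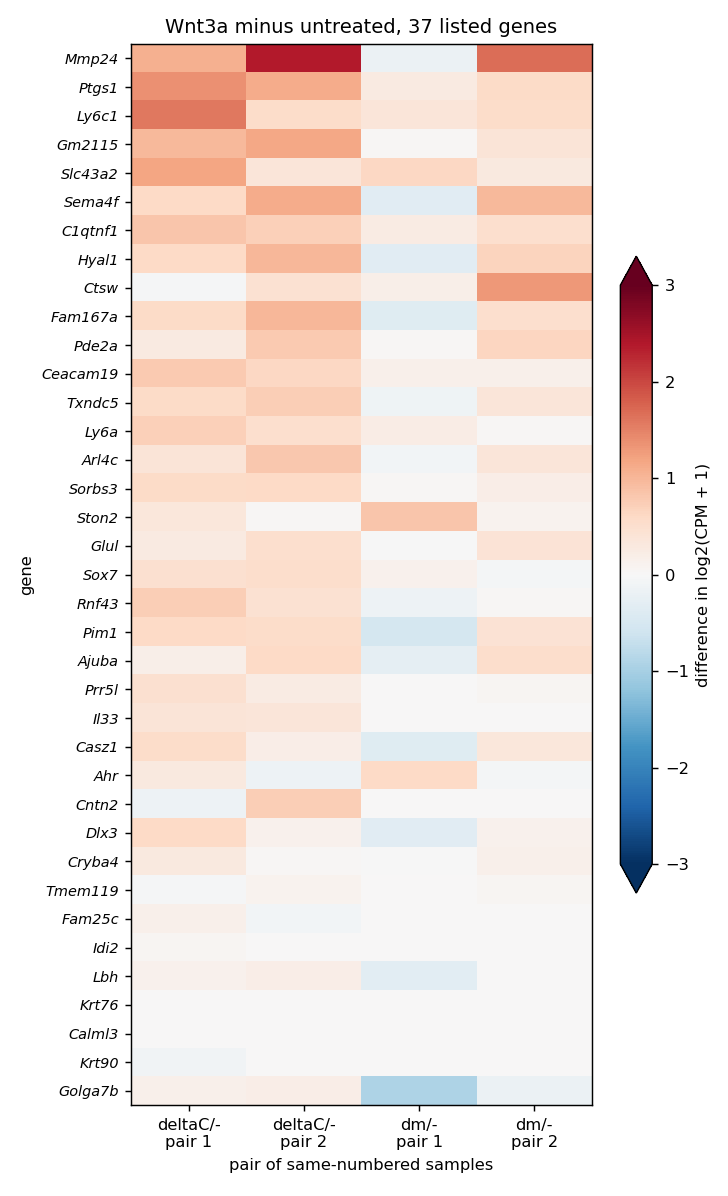
Difference in log2(CPM + 1) between Wnt3a-treated and untreated libraries of the same number for the 37 genes listed by the study, with red for higher and blue for lower in treated cells. Of the 37, 31 and 32 are higher in the deltaC/- pairs, 13 in the first and 27 in the second dm/- pair. Genes with no difference are not counted as higher.

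Whether the response of dm/- cells differed from that of deltaC/- cells was tested directly. No gene was called by limma (0%, with 71 genes, 0.516%, at an unadjusted p under 0.05) or by edgeR (198 genes). The fitted differences, dm/- minus deltaC/-, were −2.79 for Axin2 (SE 0.70) and −1.85 for Stra6 (SE 0.64), each with an adjusted p of 1, and with the replicate block the adjusted p for Axin2 was 0.0964. Leaving out the second untreated deltaC/- library gave 6 calls. This difference also ran with GC content (rho = −0.62 across genes).

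Against deltaC/fl and dm/fl cells, which have the same alleles over an intact floxed one, 14 genes were called (0.102%), 5 with a higher (0.0364%) and 9 with a lower response (0.0654%) in the cells without it. Axin2 reached 67.4 and 100.2 CPM with Wnt3a in deltaC/fl and 128 and 103 CPM in dm/fl cells, against at most 17.4 CPM without the floxed allele. The difference was −3.59 (SE 0.49, adjusted p = 1.13e-04, and 1.51e-04 without the dm/fl library that stood apart). Stra6 (−2.37, adjusted p = 0.0119, and 0.0335 without that library) and Ccdc80 (−3.18, adjusted p = 1.13e-04, and 5.47e-04 without it) differed likewise. Ccdc80 reached 10.97 and 18.2 CPM in treated deltaC/fl and 13.4 and 38.9 CPM in treated dm/fl cells. The largest positive differences belonged to Slc1a3, a glutamate transporter (2.07), Gprin3 (2.04) and Mgat3, a glycosyltransferase (1.71), which fell in the floxed lines. Slc1a3 had at most 1 read in the 8 libraries, and the call of Mgat3 was lost without the dm/fl library (adjusted p = 0.113). Of the 14 genes, 9 stayed below 1 CPM in all 8 libraries and so passed the filter on low values through other samples. Among them, 4 were at or under 3 reads in all 8 libraries, so the difference of these 4 comes from the floxed lines.

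These differences are on the log2(CPM + 1) scale, on which a gene that starts near 0 and ends low has a small response whatever its ratio. On the ratio scale of edgeR no gene was called against the floxed lines (1718 at an unadjusted p under 0.05), with −1.54 for Axin2 (adjusted p = 0.994) and −1.56 for Stra6 (adjusted p = 0.50). Within pairs, the Axin2 ratio was 15.8 and 31.4 in deltaC/- cells and 86.6 and 31.4 in deltaC/fl cells. Its counting intervals did not overlap in the first pair (7.45 to 40.2 against 58.0 to 135.6) and did in the second. For Stra6 the ratio was 55.4 and 189 in deltaC/- and 315 and 115 in deltaC/fl cells, which overlap. In dm/- cells the Stra6 ratio was 22.7 (3.69 to 936) and 3.86 (1.64 to 10.5), against 25.3 (19.2 to 34.2) and 39.7 (31.7 to 50.5) in dm/fl cells, so both dm/- ratios were lower and the counting intervals of the second pair did not overlap. Axin2 has no ratio in dm/- cells, which enter the edgeR value with at most 2 reads, so that value does not compare ratios there. The treated level of Axin2 was lower in every library without the floxed allele.

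The lines were also compared one at a time, a choice made after the values were seen. For dm/- minus dm/fl, Axin2 differed by −5.09 (SE 0.70, adjusted p = 1.33e-04) and Stra6 by −3.73 (adjusted p = 0.00376), among 15 called genes (0.109%). Without the dm/fl library that stood apart 10 genes were called, 8 of them the same, with adjusted p of 2.72e-04 for Axin2 and 0.0234 for Stra6. The replicate block gave 38 calls, and edgeR none with or without it (adjusted p = 0.979 for Axin2 and 0.496 for Stra6 without it). Of the 15 genes, 10 stayed below 1 CPM in all 8 libraries of deltaC/- and dm/- cells. For deltaC/- minus deltaC/fl the values were −2.09 and −1.01 (adjusted p = 0.978 for each), and the 1 gene called (0.00727%), Cxcr6, had at most 1 read in the 8 libraries. With the replicate block 5 genes were called there, and none in edgeR. Tcf7 differed by −0.13 (SE 0.35) in dm/- and −0.53 (SE 0.35) in deltaC/- cells. Whether these differences themselves differ between dm and deltaC was not tested.

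Against fl/fl cells 10 genes were called (0.0727%), 5 in each direction (0.0364% each). Of the 10, 7 stayed below 1 CPM in all 8 libraries, among them every gene with a positive difference. These passed the filter on low values through other samples, so the counts by direction do not describe responses of deltaC/- or dm/- cells. Treated fl/fl cells had 121 and 51.0 CPM of Axin2 and 93.5 and 139 CPM of Stra6, all above the 8 libraries. The differences were −4.34 (SE 0.61) and −3.92 (SE 0.56), each with an adjusted p of 2.61e-04, and edgeR called no gene (180 at an unadjusted p under 0.05). Fndc3c1 (2.41), Scn3a, a sodium channel gene (1.88), and Pde1c, a phosphodiesterase gene (1.5), fell in fl/fl cells and had at most 2, 1 and 7 reads in the 8 libraries. The response of Tcf7 differed by −1.12 (SE 0.30, adjusted p = 0.387), the gene reaching 32.5 and 26.8 CPM in fl/fl cells from 7.0 and 5.79 CPM.

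Against D164A/- cells, whose β-catenin keeps its C terminus but not its contact with Bcl9 and Bcl9l, 38 genes were called (0.276%), 11 with a higher (0.08%) and 27 with a lower response (0.196%) in deltaC/- and dm/- cells. Of these, 26 stayed below 1 CPM in all 8 libraries and so passed the filter on low values through other samples. Among them, 17 were at or under 3 reads in all 8. Treated D164A/- cells had 39.9 and 95.3 CPM of Axin2 and 17.7 and 141 CPM of Stra6. The responses differed by −3.63 for Axin2 (SE 0.61, adjusted p = 7.29e-04) and −3.88 for Stra6 (SE 0.56, adjusted p = 9.61e-05), and edgeR did not call either (adjusted p = 1 and 0.674). Cryba4, a crystallin gene, differed by −3.86: it went from 0.219 and 1.14 CPM to 13.4 and 44.1 CPM in D164A/- cells and had at most 2.35 CPM in the 8 libraries.

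In this comparison edgeR called 5 genes too, and limma called each of them. Ahr, a receptor for aryl hydrocarbons, went from 27.7 and 25.9 CPM to 198 and 337 CPM in D164A/- cells. In deltaC/- cells it was at 99.5 and 61.5 CPM untreated and 122 and 55.0 CPM treated, and in dm/- cells at 49.7 and 42.9 CPM and 75.9 and 41.5 CPM. The difference was −3.05 in limma (adjusted p = 5.91e-04) and −3.01 in edgeR (adjusted p = 0.0178). Il17rd, an antagonist of fibroblast growth factor signaling, differed by −3.12 in its response, Mab21l4 by −2.81 and the serpin gene Serpina3h by −2.45 (edgeR adjusted p 0.0223, 0.0178 and 0.0189). Mab21l4 had 296 and 266 CPM untreated and 497 and 563 CPM treated in deltaC/- cells, so the difference came beside a high level there, against 0.219 and 0.844 CPM and 8.35 and 39.8 CPM in D164A/- cells. These 4 were named because both tools called them. Bpifb4, of the BPI fold family, was the fifth, with a difference of 3.31 (edgeR adjusted p = 0.00659). It fell from 14.5 and 31.3 CPM to 0.95 and 1.13 CPM in D164A/- cells, whereas in dm/- cells it stood at 12.2 and 10.3 CPM untreated and 7.95 and 11.9 CPM treated. Atp6v0a4, a proton pump subunit, and Cbs, of cysteine synthesis, differed by 2.95 and 2.74 and were not called by edgeR. With the replicate block edgeR called Atp6v0a4 but not Cbs.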

How the data were processed

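RNA was measured by sequencing of stranded poly(A) libraries, for which the study's methods name a NextSeq 500. The same methods also name a NovaSeq instrument and do not say which samples it was used for. Per the labels and the study's methods, the authors mapped reads to mm10 with STAR, keeping unique hits, counted them in RefSeq genes with qCount of QuasR and used edgeR. The values they deposited are a signal, counts divided by an effective library size and here called CPM, for 20314 genes in 56 samples. All values (100%) were whole multiples of what 1 read is worth (tolerance 0.001 reads), so the reads could be recovered. Factors between library size and effective size lay between 0.809 and 1.14, and the 56 samples held 22.4 to 33.7 M reads.

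Groups were taken from the labels, and all columns were mapped to a labelled sample. Genes with at least 1 CPM in 2 of 56 samples (13754) were tested on log2(CPM + 1) with limma 3.58.1 in R 4.3.3 (eBayes with a trend), with a mean for each of the 28 conditions and 1 estimate of spread for all. The main response averaged the treated minus untreated differences of deltaC/- and dm/- cells, so genotype was held constant. Differences between lines were interaction contrasts. Since the values are not counts as deposited, edgeR 4.0.16 (quasi-likelihood, on recovered reads) was an alternative. Ratio intervals are exact 95% intervals on reads, and they and the 3-read limit cover counting error only. GC content was the median over the protein-coding GENCODE transcripts of a gene. Positions came from RefSeq GRCm38.p6 and promoters from its table. Both tools were tested on simulated data.

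Replicates are separate samples by their labels, which do not say whether they are separate cultures, so p-values measure the spread between these samples. Same-numbered samples deviated together from their group means in deltaC/- (r = 0.93) and dm/- cells (r = 0.74) and across both lines (0.73 untreated, 0.67 treated), which is where the pairing comes from. In dm/fl cells they did not (−0.07).

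The cells compared, the gene lists and the tests were chosen with earlier results of these data known. Genes named by rule were those called over both lines without overlap, called feedback and TCF/LEF genes with Axin2, Lef1, Tcf7, Nkd1, Notum, Rnf43, Znrf3, Sp5, Apcdd1, Lgr5, Myc, Ccnd1, Cdh1, Vim and Ctnnb1 always, the 3 largest called differences of each sign in each interaction, and up to 4 called members of other lists. Others, given as examples, were chosen after their values were seen. Alternatives were another pseudocount, no filter, other samples in the fit, another scaling, a replicate block, removal of the GC trend, other thresholds, edgeR and leaving out each library. Of the genes tested, 1 is not reported here, and it was left out of the lists but not of counts over all genes. The TGFβ experiment was not used beyond the estimate of spread.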

Additional observations from a re-analysis of the deposited data

Results flagged for a closer look

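Several genes had a fitted Wnt3a response that differed between deltaC/- and dm/- cells on average and other lines, by limma's test of the difference itself, and the values here are those differences in log2 fold change, taken from the largest called ones of each sign for each comparison. Against deltaC/fl and dm/fl cells, Axin2 differed by −3.59 and Ccdc80 by −3.18, whereas Slc1a3 differed by 2.07, Gprin3 by 2.04 and Mgat3 by 1.71. Against fl/fl cells, the differences were −4.34 for Axin2, −3.92 for Stra6, 2.41 for Fndc3c1, 1.88 for Scn3a and 1.5 for Pde1c. Against D164A/- cells they were −3.88 for Stra6, −3.86 for Cryba4, −3.63 for Axin2, 3.31 for Bpifb4, 2.95 for Atp6v0a4 and 2.74 for Cbs. Of these, edgeR called Bpifb4 alone, and with the replicate block Bpifb4 and Atp6v0a4. Slc1a3, Gprin3, Fndc3c1, Scn3a, Pde1c and Cbs never reached 1 CPM in the 8 libraries (at most 0.416 CPM, for Gprin3), so they passed the filter on low values through other lines, and their differences come from those lines and are no response of deltaC/- or dm/- cells. Ccdc80 stayed at or under 0.904 CPM. The differences ran with GC content across genes (rho = 0.79 against the floxed lines, −0.62 against fl/fl and 0.49 against D164A/- cells), and its part in single genes was not tested beyond the removal of the trend, which left Axin2 called in each of the 3 comparisons (adjusted p of 1.06e-05, 0.00263 and 9.96e-04).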

How the results depend on the processing

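The number of genes called moved with most choices. Over both lines 1 gene was called, and 2 with the replicate block, 2 with edgeR with or without the block, 0 with the GC trend removed with or without the block, 0 in fits of only the samples compared or of the 28 samples of the Wnt3a experiment, 0 without the dm/fl library that stood apart, 3 by adjusted p alone, 52 at an unadjusted p of 0.05 and 1.5-fold, and 0 to 4 with 1 library left out (4 without the first treated or the second untreated deltaC/- library). In deltaC/- cells it was 7, with 2 and 4 in edgeR without and with the block, 1 with the GC trend removed with or without the block, 0 in fits of only the samples compared or of the 28 samples, 2 with a pseudocount of 0.1, 313 at the looser threshold and 0 to 23 with 1 library left out (0 without the first and 23 without the second untreated library). In dm/- cells it was 0, with 1 without a filter, 8 at the looser threshold and 0 to 5 with 1 library left out, and for dm/- minus deltaC/- 0, with 57 and 0 to 6. Against the floxed lines 14 became 45 with the block, 0 in edgeR with or without it, 63 with block and GC correction, 6 and 7 in the smaller fits, 1081 at the looser threshold and 9 to 15 with 1 library left out. Against fl/fl cells 10 became 36 with the block, 0 in edgeR with or without it, 2 with the GC trend removed, 1 and 4 in the smaller fits, 3 with a pseudocount of 0.1 and 184 at the looser threshold, and against D164A/- cells 38 became 79, 5 and 10 in edgeR, 103 with block and GC correction, 14 and 22, and 294. The smaller fits changed both the number of samples and the shared estimate of spread, and the cause of these moves was not tested.

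Directions of the response over both lines turned for Tcf7l1 (−0.021 with the GC trend removed, with or without the block, and −0.24 to 0.69 with 1 library left out), Myc (−0.16 with the GC trend removed, with or without the block, and −0.24 to 0.27), Apcdd1 (−0.55 to 0.11), Cdh1 (−0.0099 to 0.32) and Ctnnb1 (−0.40 to 0.027), and in dm/- cells for Mmp24 (−0.38 to 1.88), none of them called. Of all recomputed values 804 kept direction and side of the threshold, 158 became weaker, 10 stronger and 14 turned. Among genes at 1 to 3 reads, depth limits what can be told.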
